A study of Pleurodeles waltl with 9 samples.

Results

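A set of 16 transcripts stayed high in the dorsal iris of *Pleurodeles waltl* (*P. waltl*) newts at 1 day post-lentectomy (dpl) and was much lower in every library by 4 dpl. They were chosen from 295141 transcripts by their deposited values. In both of the intact libraries 1 and 2 and in all 3 libraries at 1 dpl, each had a value of at least 200. The lowest of these 5 values was at least 4 times the highest 4 dpl value plus 1. The mean at 1 dpl had to lie between 0.5 and 2 times the mean of intact replicates 1 and 2. The values at all 3 stages therefore chose the members, and the depth of the fall and the delay are given below as a description.

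Lentectomy is the surgical removal of the lens, done here under tricaine anesthesia. Bulk polyA RNA was sequenced from the dorsal iris of 13-month-old newts, with 3 libraries from intact animals, 3 from lentectomized animals at 1 dpl and 3 at 4 dpl. A library is a pool of tissue from 4 animals. A value is a signal per transcript, which the depositors named average TPM, in columns that summed to between 17541440 and 22023430. The table holds no read counts, so the number of reads behind a value, and the counting error of low values, could not be given. In such bulk tissue, fewer cells of a type and less RNA per cell cannot be told apart.

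Intact replicate 3 was left out by the study for its alignment rate. It was not used to choose the members, and its values are shown as a check. The members summed to 17728 in it, against 203182 and 270539 in intact replicates 1 and 2. The deposited IDs carry no gene names, and 0 of them matched the 59059 genes of the reference table. What the 16 transcripts encode, and whether markers of iris cells were present, could therefore not be read.

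The newt lens regrows from pigment epithelial cells of the dorsal iris, which give up their specialized state, re-enter the cell cycle and form new lens cells. In any tissue the level of a transcript is set by synthesis and decay together with the mix of cells sampled. Because stable messages outlast their synthesis, a level can stay high for some time after transcription has ceased. A time course of bulk polyA RNA shows the sum of these processes and does not separate them.

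The members are numbered here from 1 to 16 by their mean at 1 dpl, highest first. Of the 16, 12 carried mRNA identifiers of the annotation and 4 carried identifiers assigned by StringTie, a program that assembles transcripts from aligned reads. Among the 6189 transcripts that met the limit of 200 and were kept at 1 dpl, 2098, or 33.9%, carried StringTie identifiers. Means at 1 dpl exceeded 10000 for 3 members, lay between 1000 and 10000 for 4 and stayed below 1000 for 9. The set thus ran from a 1 dpl mean of 333 for member 16 to 100416 for member 1, and its sum rested on its first 2 members.

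Member 1, mRNA164256, had the highest level of the set. Its values were 94993 and 167372 in intact replicates 1 and 2, then 111492, 66663 and 123094 at 1 dpl, and 2696, 4882 and 6208 at 4 dpl. The 1 dpl libraries lay on both sides of the lower intact value, while all 4 dpl libraries were far below both groups. Its mean was 131183 ± 51179.8 (SD, n = 2) in intact irises, 100416 ± 29801 (SD, n = 3) at 1 dpl and 4595 ± 1774 (SD, n = 3) at 4 dpl. The 4 dpl mean was 3.50% of the intact mean. Intact replicate 3 had 12195, above every 4 dpl library and below every library of the other groups.

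Member 3, mRNA13698, showed the deepest fall by the ratio used in the choice, 31.5. It had 33174 and 11529 in intact replicates 1 and 2, then 15265, 12139 and 7156 at 1 dpl, and 19.7, 226 and 97.3 at 4 dpl. The 1 dpl mean was 0.515 times the intact mean, the lowest of any member and just inside the limit of 0.5. That number rested on intact replicate 1, since the value in intact replicate 2 fell between those of the 1 dpl libraries. The 4 dpl mean, 114 ± 104 (SD, n = 3), was 0.993% of the 1 dpl mean, 11519.7 ± 4089.8 (SD, n = 3). In intact replicate 3 this transcript had 179.6, inside the range of the 4 dpl libraries.

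Member 2 was the least even of the set at 4 dpl. Its 4 dpl values were 9345, 99.0 and 4831, against 47922, 42304 and 53648 at 1 dpl. All 3 were below the 1 dpl range, but the highest was 94.4 times the lowest. Intact replicates 1 and 2 had 58687 and 72340.1, and intact replicate 3 had 74.8. Intact replicate 3 and 4 dpl replicate 2 were thus alike in holding almost none of this transcript.

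Member 4 was among the 2 members whose 1 dpl libraries all lay above both intact libraries. It had 5584 and 5179 in intact replicates 1 and 2, then 8047, 8312 and 12858 at 1 dpl, and 98.9, 41.7 and 826 at 4 dpl. The 1 dpl mean was 1.81 times the intact mean, and the 4 dpl mean was 5.98% of the intact mean. Member 11 had the same order of groups at a lower level. Its values were 293 and 360.1 in intact irises, then 645, 617 and 527 at 1 dpl, and 9.20, 56.0 and 6.47 at 4 dpl. Its 1 dpl mean was 1.83 times the intact mean, the highest of the set.

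Member 6 was even over all 3 intact libraries, replicate 3 included. It had 1926, 1988 and 2296 in the 3 intact libraries, then 1685, 2149.6 and 1257 at 1 dpl, and 122, 19.2 and 56.5 at 4 dpl. Member 12 had the smallest difference between intact replicates 1 and 2. It had 650.3, 647 and 431 in the 3 intact libraries, then 620.4, 504 and 550.1 at 1 dpl, and 94.8, 23.9 and 11.3 at 4 dpl. Both had 1 dpl means close to the intact mean, at 0.867 times for member 6 and 0.860 times for member 12.

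Member 16 had the shallowest fall between means, although the ratio used in the choice was lower for members 2 and 10. It had 312 and 344 in intact replicates 1 and 2, then 354, 322 and 325 at 1 dpl, and 27.2, 54.7 and 61.4 at 4 dpl. The 4 dpl mean, 47.8 ± 18.1 (SD, n = 3), was 14.6% of the intact mean, 328 ± 22.9 (SD, n = 2). It was the only one of the 16 members with at least 10% of its intact level left at 4 dpl. Its 1 dpl mean was 1.02 times the intact mean, and the 1 dpl and intact libraries overlapped.

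The delay was read from the 1 dpl libraries. The ratio of the 1 dpl mean to the intact mean ran from 0.515 to 1.83 with a median of 0.818 over the 16 members. The mean was higher at 1 dpl for 5 members and lower for 11. The 1 dpl and intact values overlapped for 10 members. Every 1 dpl value was above both intact values for 2 members and below both for 4, whereas 9.52% and 13.0% of the 154825 transcripts tested showed these orders. The median log2 difference between 1 dpl and intact means was −0.29. In the limma fit of the same 16 members, the median difference was −0.27, and it ran from −0.40 without intact replicate 1 to −0.04 without intact replicate 2. Sets chosen anew gave a median of 0.17 without intact replicate 2, −0.05 without intact replicate 1 and −0.50 without 1 dpl replicate 3. By the choice of members, most of the fall lay after 1 dpl.

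The depth was read from the 4 dpl libraries. The 4 dpl mean was between 0.993% and 14.3% of the 1 dpl mean, with a median of 6.57%, and between 0.512% and 14.6% of the intact mean, with a median of 6.04%. On the log2 scale of value plus 1, the difference of 4 dpl from 1 dpl ran from −6.64 to −2.78 with a median of −3.90. No member was at 0 in any 4 dpl library, and the lowest single value was 6.47. If the level had dropped evenly over the 3 days between the sampling times, it would have halved every 0.452 to 1.08 days, with a median of 0.770 days. With no library between 1 and 4 dpl, the start and the shape of the fall were not measured.

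**Figure D1:**
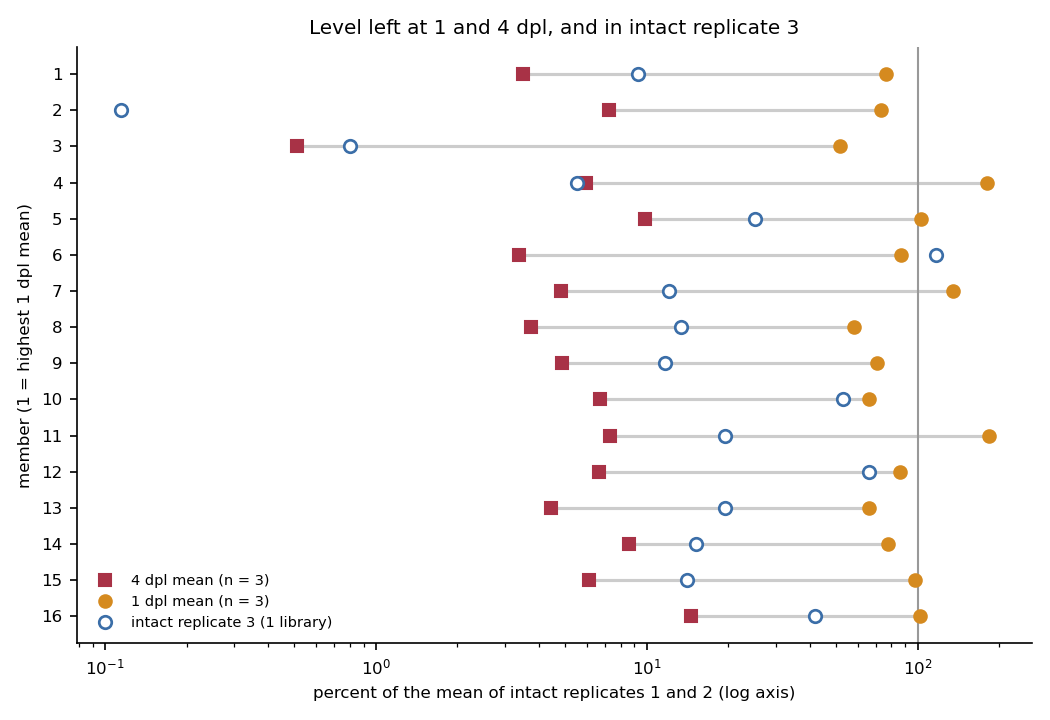
Level of each member at 4 dpl (squares, mean of 3 libraries), at 1 dpl (filled circles, mean of 3 libraries) and in intact replicate 3 (open circles, 1 library), as percent of the mean of intact replicates 1 and 2 on a log axis, with a line at 100 percent. The 4 dpl means lie between 0.512% and 14.6%, the 1 dpl means lie around the line, and intact replicate 3 ranges from 0.114% to 117%.

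The 5 members with the highest 1 dpl means, 1 to 5, were also the 5 with a 4 dpl mean above 100. Relative to intact, member 3 had both the lowest ratio at 1 dpl and the smallest share left at 4 dpl. Members 4, 7 and 11, with the highest ratios at 1 dpl, had 5.98%, 4.81% and 7.32% of the intact level left at 4 dpl, inside the range of the other members.

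The level left at 4 dpl varied widely among libraries. The highest of the 3 values divided by the lowest was 1.19 for member 14, which had 45.3, 52.4 and 44.0, and 94.4 for member 2. It exceeded 5 for 7 members, and the median was 3.71. No library was low throughout. The lowest 4 dpl value came from replicate 1 for 6 members, from replicate 2 for 4 and from replicate 3 for 6, and the highest came from them for 5, 5 and 6 members.

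As a share of everything in a column, the 16 members made up 1.05% and 1.38% of intact replicates 1 and 2, then 0.951%, 0.697% and 0.938% at 1 dpl, and 0.0603%, 0.0295% and 0.0648% at 4 dpl. Members 1 and 2 held between 75.6% and 92.6% of the sum in these 8 libraries. The remaining 14 members summed to 49502 and 30826 in intact replicates 1 and 2, then 34729, 31731 and 29928 at 1 dpl, and 968, 1084 and 1596 at 4 dpl. With the 2 most abundant members set aside, the 4 dpl sums were still the lowest, as the choice of members requires. The intact and 1 dpl sums of the remaining 14 overlapped.

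A fall of this size after a level kept at 1 dpl was rare in the table. Of all transcripts, 7536 had at least 200 in the 5 libraries used for the lower limit, and 6189 of these were kept at 1 dpl. The lowest of the 5 values exceeded the highest 4 dpl value plus 1 for 878, or 14.2%, was at least 2 times it for 83, or 1.34%, and at least 3 times it for 32, or 0.517%. The 16 members, with at least 4 times, were 0.259%, and 4 transcripts reached 8 times. With the limits of 200 and 4 times placed on other libraries, 74 transcripts were already lost by 1 dpl, and 72 were kept at 1 dpl and gained by 4 dpl. Both sets required high values in fewer libraries than the members did, so their counts are not directly comparable with the 16.

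**Figure D2:**
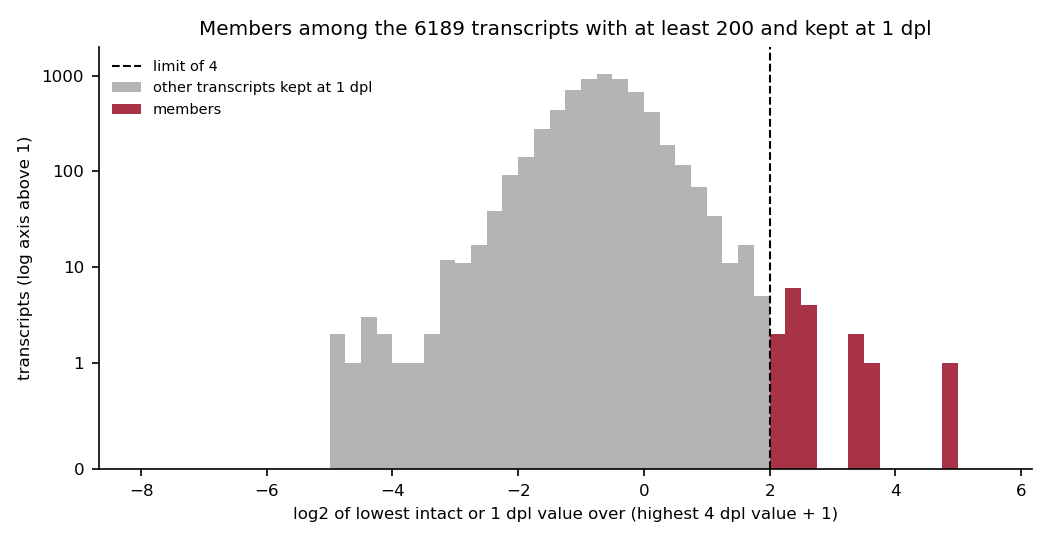
Number of transcripts (log axis above 1) by the log2 ratio of the lowest intact or 1 dpl value to the highest 4 dpl value plus 1, for the 6189 transcripts with at least 200 and kept at 1 dpl; red bars are the 16 members and the dashed line is the limit of 4. The members form the right end of a single distribution, with 83 transcripts at or above a ratio of 2 and 4 at or above 8.

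The limits cut through a continuous range. The members nearest to the ratio limit had ratios of 4.43 and 4.53, and the transcripts just outside it had 3.99 and 3.91. The lowest values nearest to 200 were 225 and 293 inside, and 199 and 159 outside. For the ratio of 1 dpl to intact means, 0.515 and 1.83 lay inside, while 0.472 and 2.01 lay outside. A further 18 transcripts met the ratio and the range at 1 dpl with a lowest value under 200. With at least 200 and the ratio met, 4 transcripts had a 1 dpl mean under 0.5 of the intact mean and 1 had a mean over 2 times it.

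How much each library shaped the set was read by leaving it out of the choice. Without 4 dpl replicate 1, 31 transcripts met the limits, without 4 dpl replicate 2, 26, and without 4 dpl replicate 3, 28. All 16 members were among them each time, and they are by construction the transcripts that also met the limit in the left-out library. The third 4 dpl library thus removed between 10 and 15 transcripts that the other two would have admitted. Without 1 dpl replicates 1, 2 and 3, 18, 21 and 27 transcripts met the limits, and 15, 15 and 16 members were among them. Without intact replicate 1 or intact replicate 2, the number was 18, with 14 members among them in either case.

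Intact replicate 3 gave another reading of a library that the choice did not use. It met the limits set for the other intact libraries for 3 of the 16 members, namely 6, 10 and 12, and for 23 of the 6189 transcripts kept at 1 dpl. The 23 include these 3. The limits use the highest 4 dpl value, which the choice had set low for the members alone, so these counts are not compared. After median-of-ratios rescaling of the columns, intact replicate 3 met the limits for 1 of the 17 transcripts then chosen. Its value was at least 200 for 7 members, or 43.8%, where 80.9% of the transcripts kept at 1 dpl had this much. It was above the highest 4 dpl value for 13 members. The choice had set those 4 dpl values low, and the share over other transcripts was not computed, so nothing is read from this count. For 14 members, or 87.5%, intact replicate 3 was below the lower of intact replicates 1 and 2, as it was for 75.7% of the transcripts kept at 1 dpl. For 11, or 68.8%, it was at or below 0.25 times that value. Among the 6189 transcripts kept at 1 dpl, 6.35% were this low in intact replicate 3, and among the 74 lost by 1 dpl, 25.7% were. The median of intact replicate 3 over the lower of the other intact values was 0.214 for the members, 0.416 for transcripts lost by 1 dpl and 0.765 for those kept at 1 dpl. As this is 1 library, no test was made, and the part that its quality plays in these values was not tested. On the log2 scale, 12 of the 16 members in intact replicate 3 lay closer to the 4 dpl mean than to the intact mean. The choice had bounded both of these means, and the share over other transcripts was not computed, so nothing is read from the 12. The high intact level of most members rests on intact replicates 1 and 2, since intact replicate 3 was at or below 0.25 times the lower of them for 11.

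The fit across the whole table used limma on log2(value + 1), with Benjamini-Hochberg adjustment over 154825 transcripts and a threshold of 0.05, in the 8 libraries without intact replicate 3. For 4 dpl against 1 dpl, 15 of the 16 members were called lower, where 0.243% of all transcripts were. For 4 dpl against intact, 15 were called lower, where 0.651% were. Because both contrasts chose the members, nothing is read from these counts. Every 4 dpl value was below every 1 dpl value and below both intact values for all 16 by the choice itself, against 7.12% and 17.4% of all transcripts. The member not called was member 2 in both cases, with a fitted log2 difference of −4.85 (SE 1.34, limma, Benjamini-Hochberg adjusted p = 0.192) between 4 dpl and 1 dpl. The calls depended on the libraries and on the variance model, among the members and over all transcripts. For 4 dpl against 1 dpl, 376 of all transcripts were called lower in the main fit. Without 1 dpl replicates 1, 2 and 3, 9, 6 and 7 members were called, beside 139, 78 and 151 of all transcripts. Without 4 dpl replicate 1 these counts were 9 and 133, and without the variance trend 1 and 10. Between 140358 and 155554 transcripts were tested in these fits. For 4 dpl against intact, 3 members were called without the trend, beside 51 of all transcripts, against 1008 in the main fit. When 1 intact library is left, it is assumed to vary like the other groups, so member counts from those fits are not given. In them, the members' median fitted difference of 4 dpl from intact was −4.71 without intact replicate 1 and −4.41 without intact replicate 2. The main fit gave −4.52.

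For 1 dpl against intact, limma called 0 of the 16 members at an adjusted p under 0.05, where 1.34% of all transcripts were called in either direction. At an unadjusted p under 0.05 the count was also 0, but the share over all transcripts was not computed. The choice bounded the members in this contrast, so nothing is read from either count. For mRNA164256 the fitted log2 difference was −0.38 (SE 0.37, limma, Benjamini-Hochberg adjusted p = 0.735) between 1 dpl and intact, −4.48 (SE 0.33, adjusted p = 0.00141) between 4 dpl and 1 dpl and −4.86 (SE 0.37, adjusted p = 0.000386) between 4 dpl and intact. For mRNA13698 these were −0.83 (SE 0.85, limma, Benjamini-Hochberg adjusted p = 0.736), −7.15 (SE 0.76, adjusted p = 0.00604) and −7.98 (SE 0.85, adjusted p = 0.00203). Both 4 dpl contrasts chose these transcripts, and mRNA13698 was named for its ratio in the same values. The p-values of the 4 dpl contrasts thus give no further evidence of a fall. Without intact replicate 1, neither 4 dpl contrast of mRNA13698 was called, and without intact replicate 2, its difference from 1 dpl was not called. Without the variance trend, neither of these transcripts was called between 4 dpl and 1 dpl. With intact replicate 3 in the fit, the difference between 1 dpl and intact turned to 0.75 for mRNA164256 and 1.42 for mRNA13698, and neither was called. The members' median fitted difference between 1 dpl and intact was 0.61 with that library and −0.27 without it. The members' median fitted difference between 4 dpl and 1 dpl was −4.15, beside −0.24 over all transcripts tested. With columns rescaled to a total of 1000000, 54868 transcripts passed the minimum, their median was −0.01 and that of the members was −3.58. Without rescaling, a minimum mean of 20 left 45047 transcripts with a median of 0.0045.

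The 4 members with StringTie identifiers belonged to 3 assembled genes, whose other transcripts could be read beside them. Sums of a gene cover its StringTie identifiers alone. The mRNA identifiers do not name a gene, so any transcripts of the same gene listed under them are not included. Whether the other transcripts kept the gene's level differed from gene to gene. In the assembled gene of member 7, all 4 transcripts together summed to 285, 524 and 543 at 4 dpl, against 1157, 1355 and 2017 at 1 dpl. The log2 difference was −1.74 for the gene, −4.77 for member 7 and 0.03 for the other 3 transcripts together. Member 7 made up 8.76% of the gene's sum at 4 dpl, against 73.4% at 1 dpl, and the gene's fall lay in this member.

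Members 10 and 14 came from the same assembled gene of 12 transcripts and are not separate genes. Member 10 had 547 and 1992 in intact replicates 1 and 2, then 647, 1098 and 778 at 1 dpl, and 35.2, 97.1 and 122.5 at 4 dpl. Both members together differed by −3.25 on the log2 scale between 4 dpl and 1 dpl, and the other 10 transcripts by −0.28. The other 10 were already lower at 1 dpl, by −1.42 against intact, while the members differed by −0.52. Much of that came from a single transcript with means of 3081 in intact irises, 539 at 1 dpl and 307 at 4 dpl. Within this gene, some transcripts were thus low at 1 dpl and others only at 4 dpl.

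The assembled gene of member 12 held its level between 1 and 4 dpl. Its 6 transcripts summed to 4391, 4699 and 3699 at 4 dpl, against 4402, 4212 and 4716 at 1 dpl, a log2 difference of −0.06. In intact replicates 1 and 2 they summed to 5462 and 5361, above every 1 dpl and 4 dpl library. Member 12 made up 1.02% of this sum at 4 dpl, against 12.6% at 1 dpl. Another transcript of the gene made up 12.02% at 4 dpl, against 1.75% at 1 dpl, with means of 512 and 77.9. Between 1 and 4 dpl, the loss of member 12 was therefore not a loss of the level summed over the gene's StringTie identifiers. How reads were shared out among transcripts of a gene was not tested.

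**Figure D3:**
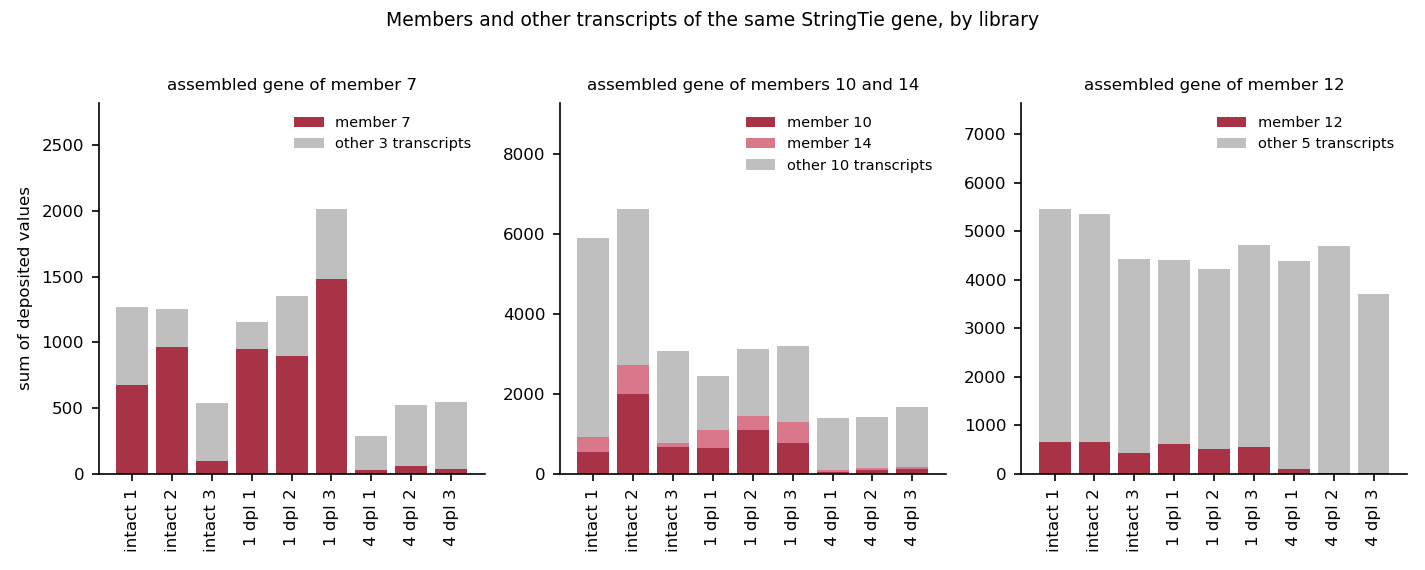
Sum of deposited values by library for the 3 StringTie genes that hold members 7, 10 and 14, and 12, with members in red and the other transcripts of the same gene in gray. The gene of member 7 drops with its member at 4 dpl, the gene of members 10 and 14 is lower already at 1 dpl, and the gene of member 12 stays between 3699 and 5462 in the 8 libraries used while its member is nearly lost.

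The table lists transcripts in runs of rising identifier numbers, which allowed each member to be read beside the 10 rows before and after it. This reading was chosen after the values had been seen, and the order of the rows is not known to be that on a chromosome. Members 1 and 2 lay 6 rows apart. A transcript between them was of the same size, with means of 154939 in intact irises, 125789 at 1 dpl and 26225 at 4 dpl. It missed the limit on the ratio, and its 3 values at 4 dpl, 29260.3, 16225 and 33190.5, were below its 1 dpl values of 127725, 109042 and 140601.

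Some neighbors within 10 rows had a 4 dpl mean of at least 200 and at least 4 times the mean plus 1 of both earlier stages. The intact mean used here left out intact replicate 3. At least 1 was found for 5 of the 16 members, or 31.2%. Such a neighbor was found for 329 of the 6189 transcripts kept at 1 dpl, or 5.32%. The 5 members were 1, 2, 4, 11 and 12. Members 1 and 2 shared 1 of these neighbors, and the neighbor of member 12 was the transcript of its own assembled gene described above. In intact replicate 3, the neighbors of members 1 and 2 had 8239 and 12998, above their 4 dpl means of 2538 and 2256. The neighbors of members 4, 11 and 12 had 188, 141 and 357 there, against 4 dpl means of 290, 1027 and 512. The count of 5 thus depended on leaving that library out. It was not computed with that library, for the members or for the 6189, so nothing is read from the 31.2%.

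The neighbors of member 2 were high only in the 2 libraries where member 2 had its lowest values. The first had 6734 in 4 dpl replicate 2 and 12998 in intact replicate 3, and the second had 7548 and 8239 in these libraries. In the other 7 libraries both were at or below 142. The sum of member 2 with both neighbors was 9396, 14381 and 4880 at 4 dpl, against 47983, 42459 and 53696 at 1 dpl, and the log2 difference was −2.33. The spread among 4 dpl libraries was far smaller in this sum than in member 2 alone, and all 3 libraries remained below the 1 dpl range. In intact replicate 3 the sum was 21313, against 58730 and 72496.2 in intact replicates 1 and 2.

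For member 11, the transcript in the next row had 2133, 898 and 50.8 at 4 dpl, against 15.4, 24.4 and 24.8 at 1 dpl. Their sum was 2142, 954 and 57.3 at 4 dpl, against 661, 641 and 552 at 1 dpl, a log2 difference of 0.77, with 2 libraries above and 1 below. For member 12, the sum with its neighbor was 514, 508 and 645 at 4 dpl, against 643, 653 and 613 at 1 dpl, a log2 difference of −0.19. The sums of members 1 and 4 with their neighbors still differed by −3.82 and −3.99. In the sums, the 4 dpl libraries all lay below the 1 dpl libraries for members 1, 2 and 4, but not for members 11 and 12. This order was found for 7.12% of all transcripts tested. Members 1, 2 and 4 made up nearly all of their 1 dpl sums, and the choice had already set them low at 4 dpl. Whether members and these neighbors share sequence, and so share reads, was not tested.

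**Figure D4:**
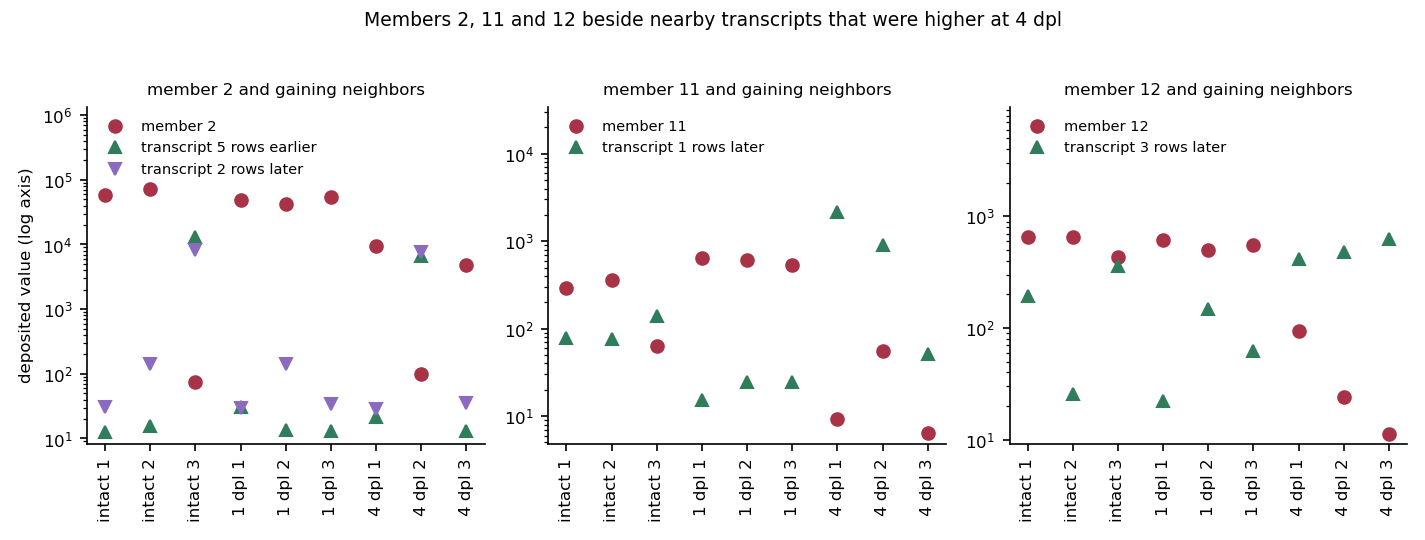
Deposited values (log axis) by library of members 2, 11 and 12 (circles) and of the transcripts within 10 rows of the table that were higher at 4 dpl (triangles). The neighbors of member 2 are high in intact replicate 3 and 4 dpl replicate 2 alone, where member 2 has 74.8 and 99.0, while the neighbor of member 11 is high in 2 of the 3 libraries at 4 dpl and that of member 12 in all 3.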

How the data were processed

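RNA from *P. waltl* dorsal iris was sequenced by the authors in 9 libraries. Reads were trimmed (Trim Galore), aligned (STAR), assembled into transcripts (StringTie, gffread) and quantified (Salmon) by the authors. The build and the versions of these tools are not given in the sources used here. The deposited values, named average TPM by the authors, were treated as a signal per transcript, since TPM sum to 1000000. No value above 0 was whole, so no counts were tested. The design had been written for TPM and was kept.

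Members and lists were chosen with earlier results of these data known. Tests used limma 3.58.1 in R 4.3.3 (lmFit, eBayes with trend) on log2(value + 1), in 8 libraries, for transcripts with a mean of at least 0.5, and were tested on simulated data. Values were handled in pandas 2.3.3 and plotted in matplotlib 3.10.9. Named IDs are the member with the highest 1 dpl mean and that with the greatest ratio. Without gene names, no marker list or sequence was used. Alternatives concerned the limits, pseudocount, minimum, scaling, trend, groups fitted, replicate block, intact replicate 3 and each library left out. Sums over neighboring rows were added after the data were seen.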

Additional observations from a re-analysis of the deposited data

Results flagged for a closer look

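The difference from intact was not the same at 4 dpl and at 1 dpl for 15 of the 16 members, by limma's test of 4 dpl against 1 dpl with Benjamini-Hochberg adjustment. All 15 were called lower at 4 dpl, where 0.243% of all transcripts tested were. This contrast chose the members, so the count describes them and gives no further evidence of a fall.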

How the results depend on the processing

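The limits fix the direction of the fall at 4 dpl in any set chosen by them, so the medians below show its size alone. The main set had 16 members, of which 3 met the limits in intact replicate 3, and median log2 differences of −3.90 (4 dpl minus 1 dpl), −4.02 (4 dpl minus intact) and −0.29 (1 dpl minus intact). A ratio of 3 gave 32 members, 8 of them meeting the limits in intact replicate 3, and medians of −3.12 and −3.22 at 4 dpl. A ratio of 8 gave 4 members, 1 met, and medians of −4.72 and −4.85. A lowest value of 100 gave 5 met and −3.75 against 1 dpl, and a lowest value of 400 gave −4.34 against intact. A narrower range of 1 dpl means, from 0.8 times intact to its inverse, gave 5 members, −3.66 for 4 dpl against 1 dpl and −0.027 for 1 dpl against intact. With no bound on the 1 dpl mean, 7 met and the difference of 4 dpl from intact was −4.34. Median-of-ratios rescaling gave 1 met, and requiring the limits in intact replicate 3 as well gave 5 members, 3 of them shared. Against 1 dpl, the other transcripts of the 3 assembled genes had a median of 0.032 and the whole genes −0.97. Sums over a member together with the 10 rows on each side of it had a median of −0.69. With each library left out, members numbered 18 to 31, those meeting the limits in intact replicate 3 numbered 3 to 11, and the medians ran from −3.90 to −3.58 for 4 dpl against 1 dpl, −4.22 to −3.77 for 4 dpl against intact and −0.50 to 0.17 for 1 dpl against intact.

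Limma called 15 members lower in both 4 dpl contrasts, where 0.243% of all transcripts were called lower against 1 dpl and 0.651% against intact. Without the variance trend it called 1 and 3 members, beside 10 and 51 of all transcripts. With a 1 dpl or 4 dpl library left out, it called 6 to 12 members against 1 dpl, beside 78 to 151 of all transcripts. Against intact it called 12 to 14 members, beside 487 to 1135 of all transcripts. With only the groups compared in the fit, it called 14 members lower against 1 dpl, beside 210 of all transcripts. Against intact, that fit called 10 members, beside 776 of all transcripts. Fits that leave 1 intact library gave median differences of the members from intact of −4.71 and −4.41 at 4 dpl. In 1 dpl against intact, 0 members were called in any alternative that kept intact replicates 1 and 2, beside 122 to 4569 of all transcripts. In these fits 0 to 3 members had an unadjusted p under 0.05, a share not computed over all transcripts. The choice bounded this contrast, so nothing is read from these counts. In the same contrast, mRNA164256 changed sign without intact replicate 2 (0.031) and with intact replicate 3 (0.75), and mRNA13698 with intact replicate 3 (1.42). With each library left out, this difference ran from −0.79 to 0.031 for mRNA164256 and from −1.59 to −0.07 for mRNA13698. The replicate block also gave 15 and 15 members called lower at 4 dpl, beside 191 of all transcripts against 1 dpl and 518 against intact. Libraries with the same number did not deviate together, with correlations across 45047 transcripts from −0.0806 to 0.0048, against −0.0521 to 0.0804 for other pairs. The cause of these shifts was not tested.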
